A study of Acomys cahirinus and Mus musculus with 6 samples.

Results

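Ear punch wounds of the spiny mouse (Acomys cahirinus), a rodent that regrows ear tissue after such a punch, were profiled cell by cell after treatment with an ERK inhibitor, and the cells are compared here type by type with those of a wound that received the vehicle DMSO. The inhibitor side is 1 library of 631 cells and the DMSO side is 1 library of 15363 cells. The compared members are the cells of every annotated type with at least 20 cells in both libraries. These are 8 of the 17 types, with 542 of the 631 inhibitor cells and 12492 of the 15363 DMSO cells, out of 39577 cells in 6 libraries. Both libraries came from healing ear punches of animals whose strain is labelled wild-type, and the ERK inhibitor or DMSO was injected from day 12 to day 15. Libraries from spiny mice given an ErbB2 inhibitor or an FGFR1/2/3 inhibitor over the same days are used only as levels beside these. The inhibitor's name, the ages of the animals and the number of animals behind a library were not found in the labels. No test was possible with 1 library on each side, so no p-value is given, a difference compares these 2 libraries, and animal, dissociation and treatment cannot be told apart.

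ERK is the last kinase of a cascade that begins at growth factor receptors such as those of the FGF and ErbB families. It enters the nucleus and drives genes for cell cycle entry, among them Ccnd1, and genes for its own inhibitors, such as the phosphatase Dusp6 and the Sprouty protein Spry2. In skin, the cascade is known for its part in keratinocyte proliferation, in the hair follicle cycle and in the growth of vessels.

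Spiny mouse reads carry mouse gene names, so a value is what was counted under that name, and 5345 of the 20381 genes had 0 unique molecular identifiers (UMIs, tags that count RNA molecules) in every spiny mouse cell. The ERK inhibitor library held 7429819 UMIs with a median of 6915 per cell, and the DMSO library held 70058081 with a median of 3125. The medians were 4153 with the ErbB2 inhibitor and 5162.5 with the FGFR inhibitor. The inhibitor and DMSO libraries shared 5 cell barcodes. Levels are counts per 1000000 UMIs (CPM), summed over a type in 1 library. Ratios are log2 of ERK inhibitor over DMSO CPM with 2 UMIs of prior count divided in proportion to depth, and a bracket after a ratio is the exact conditional binomial 95% interval. Brackets after shares of cells are exact Clopper-Pearson 95% intervals. Neither kind covers more than counting error. Where a gene had 0 UMIs in 1 of the 2 libraries, a bound is given, computed with 3 UMIs there.

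The labels of the types were set against marker genes. Clusters of hair germ and outer bulge led with the follicle stem cell genes Lgr5 and Lhx2. Sebaceous gland clusters 4 and 36 led with Far2 and Awat2, which make wax and sebum lipids. Clusters 18 and 20 had no marker of the gland among their 10 leading genes, and cluster 18 led with Cxcl1 and Saa3 among others. The 3 endothelial clusters led with Ackr1 and Sele (cluster 8), with the lymphatic genes Prox1 and Ccl21a (cluster 17), and with Esm1 and Kdr (cluster 29). Cluster 7, which is the whole of the type called circulating monocytes, went against its name: Cxcr2, a neutrophil chemokine receptor, was among its 10 leading genes, and none of the 5 monocyte markers was. It is called cluster 7 below. The type called resident macrophages was split between cluster 6, led by C1qb, C1qa and Cd209a, and cluster 45, led by the mast cell genes Mcpt4, Cpa3, Cma1 and Tpsb2, so only cluster 6 is described for its genes.

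The ERK inhibitor library held a larger share of myeloid cells and a smaller share of basal and cycling epidermal cells than the DMSO library. Cluster 7 made up 55 of 631 cells (8.72%, 6.63 to 11.2) against 227 of 15363 (1.48%, 1.29 to 1.68), a 5.90-fold larger share. Its share was 0.969% with the ErbB2 inhibitor and 1.86% with the FGFR inhibitor, so the ERK inhibitor library stood above all the other three. Resident macrophages were 33 cells (5.23%, 3.63 to 7.27) against 504 (3.28%, 3.0 to 3.57). None of those 33 cells belonged to the mast cell cluster 45, which allows a share of up to 10.6% at the upper end of the interval, while 94 of the 504 DMSO cells (18.7%) did.

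Over all cells, hair follicle, gland and endothelial shares differed less than that of cluster 7. Hair germ and outer bulge cells were 54 (8.56%, 6.49 to 11) against 923 (6.01%, 5.64 to 6.40), and the ErbB2 and FGFR inhibitor libraries were also above DMSO at 8.86% and 7.76%. Sebaceous gland cells were 66 (10.5%, 8.18 to 13.1) against 1404 (9.14%, 8.69 to 9.61), and endothelial cells were 44 (6.97%, 5.11 to 9.25) against 977 (6.36%, 5.98 to 6.76). For both of these types the intervals of the shares overlapped.

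In the interfollicular epidermis (IFE), basal cells were 103 (16.3%, 13.5 to 19.4) against 4031 (26.2%, 25.5 to 26.9), and cycling basal cells were 34 (5.39%, 3.76 to 7.45) against 1428 (9.30%, 8.84 to 9.77). Suprabasal cells were 153 (24.2%, 21.0 to 27.8) against 2998 (19.5%, 18.9 to 20.2). The ErbB2 and FGFR inhibitor libraries lay on the same side of DMSO as the ERK inhibitor library for these 3 types. Depth moved with these shares: among cells of at least 3000 UMIs the suprabasal share was lower with the inhibitor (22.5% against 32.5%), the share of cluster 7 was 8.95% against 0.114%, that of hair germ 9.83% against 1.98% and that of the sebaceous gland 8.30% against 9.92%. Resident macrophages were 7.21% against 1.77% in that set, endothelium 5.46% against 3.1% and cycling basal cells 5.46% against 13.2%. Just outside the limit of 20 cells were T-cells with 19 cells, the type named Unknown with 19, and dendritic cells with 16 (2.54% against 0.579% with DMSO).

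**Figure D1:**
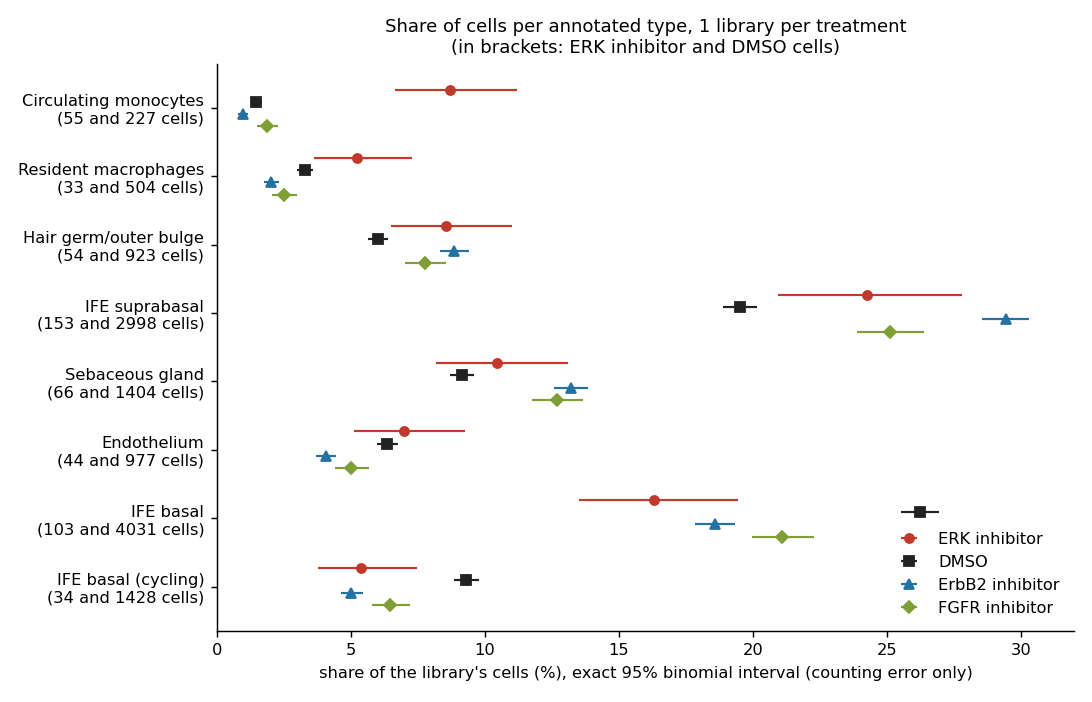
Share of each library's cells (x axis, percent) in the 8 annotated types, with points for the 4 spiny mouse libraries and bars for exact 95% binomial intervals. The ERK inhibitor library lies above the other three for circulating monocytes (8.72% against 0.969 to 1.86%), and the DMSO library lies above the 3 inhibitor libraries for basal and cycling basal cells.

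One difference ran through all 5 types outside the interfollicular epidermis and stands beside all the gene results. RNA of suprabasal keratinocytes (the 7 markers Krt1, Krt10, Krtdap, Sbsn, Dmkn, Calm4 and Lgals3) made up far less of the UMIs in the ERK inhibitor library than in the other libraries, also in cells that are not epidermal. In hair germ and outer bulge it was 0.192% of UMIs with the ERK inhibitor, 2.31% with DMSO, 2.34% with the ErbB2 inhibitor and 0.910% with the FGFR inhibitor. In endothelium it was 0.215, 2.46, 2.80 and 0.940% in the same order, in cluster 6 it was 0.187, 2.47, 2.12 and 1.26%, and in cluster 7 it was 0.275, 3.82, 4.04 and 2.32%. The sebaceous gland had 0.0928, 1.08, 1.06 and 0.435%. With the ERK inhibitor, 5 to 7 of the 7 markers were detected, with Dmkn at 0 UMIs in hair germ, endothelium and cluster 7, and Calm4 at 0 in hair germ, sebaceous gland and cluster 7. In all 5 types the ERK inhibitor library was lowest and the FGFR inhibitor library next, while the order of DMSO and the ErbB2 inhibitor varied.

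The genes named below as highest or lowest were taken from those at least as high in the type as in all other cells of the library where they were higher. Such genes are called the type's own genes. The rule sets a type against all other cells together, so a gene of another type can still pass it. Mast cell and keratinocyte genes passed it in several types, so the name does not show which cells made the RNA. The list of epidermal differentiation genes shows the same displacement: all 12 of the members used in hair germ, all 10 in endothelium, all 13 in cluster 6 and all 12 in cluster 7 were at least 1.5-fold lower, as were 12 of 14 in the sebaceous gland. Their medians ran from −3.60 in endothelium to −4.98 in cluster 7, or from −3.29 in the sebaceous gland to −4.89 in cluster 7 with genes at 0 UMIs at their bound. Against that, the share of genes at least 1.5-fold lower over all genes used was 15.3% in hair germ, 11% in the sebaceous gland, 23% in endothelium, 25.6% in cluster 6 and 48.7% in cluster 7. The part of keratinocyte RNA in the other differences was not tested.

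**Figure D2:**
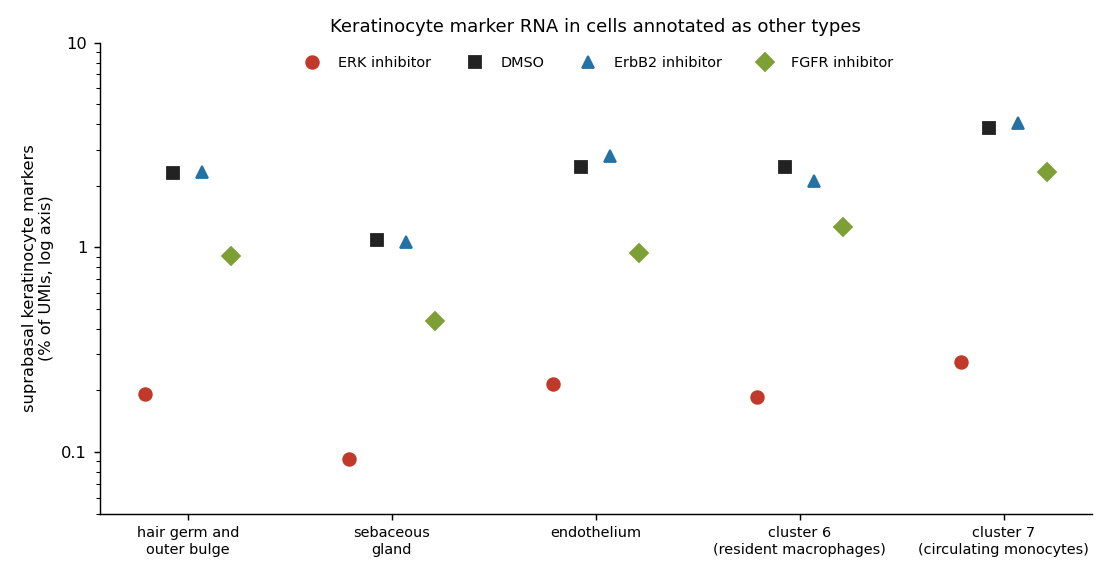
Percent of UMIs (y axis, log scale) from 7 suprabasal keratinocyte markers in the 5 types outside the interfollicular epidermis, with 1 symbol per spiny mouse library. The ERK inhibitor library is lowest in all 5 types, from 0.0928% in the sebaceous gland to 0.275% in cluster 7, where the DMSO library has 1.08% and 3.82%.

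Hair germ and outer bulge cells hold follicle stem cells and the progenitors that start a new hair. Here 5848 genes could be compared, from 54 cells with 341943 UMIs (median 5808.5 per cell) against 923 cells with 1906287 UMIs (median 1704). With the ERK inhibitor 5.59% of these genes were at least 2-fold higher and 7.59% at least 2-fold lower, and of the 444 lower genes only 122 were the type's own. The highest own genes were metabolic and stress genes: Pdk4, Mt2, Rasd1, Klf15, Mt1, Cebpd, Nfil3 and Txnip. Of 8 follicle stem cell and bulge genes used, 6 lay within 1.5-fold of DMSO.

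Pdk4 encodes a kinase that shuts pyruvate out of the mitochondrial citrate cycle, and it lies on chromosome 6 from 5483351 to 5496309 (build mm10/GRCm38 here and below, whole gene spans of GENCODE vM21). It stood at 149 CPM with the ERK inhibitor, 5.77 with DMSO, 255 with the ErbB2 inhibitor and 8.76 with the FGFR inhibitor, a ratio of 4.49 (3.73 to 5.78). The ERK and ErbB2 inhibitor libraries were high and the other two low. The neighbouring metallothioneins Mt2 (chromosome 8, 94172664 to 94173568) and Mt1 (94179082 to 94180327) encode small proteins that bind zinc and copper. Mt2 stood at 1225, 83.4, 815 and 27.3 CPM in the same library order, a ratio of 3.86 (3.61 to 4.15). Mt1 stood at 2764, 393, 1899 and 234 CPM, a ratio of 2.81 (2.67 to 2.95). Txnip, an inhibitor of thioredoxin and of glucose uptake, stood at 541, 86.6, 487 and 174 CPM, a ratio of 2.63 (2.33 to 2.96). All 4 genes were thus high in both the ERK and the ErbB2 inhibitor library.

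Klf15, a transcription factor of fasting metabolism, had a ratio of 2.92 (2.02 to 4.15). Nfil3, a circadian repressor, was at 2.69 (1.99 to 3.53) and Cebpd, a transcription factor of the acute phase response, at 2.71 (2.30 to 3.17). Rasd1, a small GTPase, was at 3.1 (2.33 to 4.15), and it was 1.84, on 2 UMIs against 8, when every cell was thinned to 1000 UMIs. The list of metallothionein and oxidative stress genes had 5 of 7 used members at least 1.5-fold higher and 0 lower (median 0.81), beside 18% of all genes at least 1.5-fold higher and a median of 0.08.

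Among 8 follicle stem cell and bulge genes used, 2 were at least 1.5-fold higher and 0 lower (median 0.35). Krt15, the keratin of bulge stem cells, which is named here after its value was seen, stood at 5904 CPM with the ERK inhibitor, 4088 with DMSO, 3597 with the ErbB2 inhibitor and 6684 with the FGFR inhibitor. Its ratio of 0.53 (0.46 to 0.60) lies within the spread of the other 3 libraries. The stem cell receptor Lgr5 was at 90.7, 84.5, 95 and 95.4 CPM (0.10, −0.50 to 0.66), so no difference was detectable at this depth. Dkk3, a WNT pathway modulator, was at 0.71 (0.29 to 1.11). Of the markers of bulge and outer root sheath, Krt17, a keratin of follicle sheaths, was lower than DMSO at 541, 849, 383 and 1237 CPM (−0.65, −0.88 to −0.43). Krt79, a keratin of the follicle canal, had 17 UMIs against 634 (−2.72, −3.53 to −2.05), but it was not one of the type's own genes. It stood at 49.7 CPM here and 374 in the other inhibitor cells, and at 333 here and 682 in the other DMSO cells. Sostdc1, a BMP and WNT antagonist, had 4 UMIs against 41 (−0.83, −2.82 to 0.59). These 3 are also named after their values were seen. Of 10 genes for basal keratins and hemidesmosomes, the anchors of epithelium to its basement membrane, 3 were higher and 0 lower (median 0.07).

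Signals that control the follicle were mixed. Of 11 WNT, BMP and hedgehog targets used, 4 were higher and 1 lower (median 0.39). Bmp2, a ligand that holds follicle stem cells at rest, stood at 111, 26.2, 108 and 32.1 CPM in the ERK inhibitor, DMSO, ErbB2 and FGFR inhibitor libraries, a ratio of 2.05 (1.43 to 2.72). Hhip, which binds and blocks hedgehog ligands, was at 1.75 (0.75 to 2.86). Gli1, the transcription factor that reads out hedgehog signalling, had 2 UMIs against 45, a ratio of −1.86 (−5.10 to −0.08). Of 7 TGF-beta targets, 3 were higher and 1 lower (median 0.53). Among them were the matrix genes Ccn2 (1772, 547, 1850 and 1075 CPM, ratio 1.69, 1.55 to 1.84) and Tgfbi (1.61, 1.21 to 2.02). With thinned cells that median was −1.06, while Ccn2 was at 2.20. Both thinned values rest on 51 inhibitor cells at 1000 UMIs each.

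Of 8 ERK target and feedback genes used in hair germ, 2 were higher and 2 lower (median −0.00). Ccnd1, the cyclin D1 gene (chromosome 7, 144929931 to 144939925), stood at 173 CPM with the ERK inhibitor, 292 with DMSO, 169 with the ErbB2 inhibitor and 390 with the FGFR inhibitor, a ratio of −0.76 (−1.17 to −0.37). Dusp6 (chromosome 10, 99263231 to 99267489) had 4 UMIs against 40 (−0.80, −2.79 to 0.62). Spry2 was at 0.21 (−0.54 to 0.90), Myc at −0.21 (−1.75 to 1.03) and Etv4, an FGF-induced transcription factor, at −0.21 (−1.0 to 0.49). For these 4 the interval includes 0.

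The gene with the lowest value was Ccer2, a secreted coiled-coil protein gene, with 0 UMIs against 1003, at least 60.0-fold lower. It had 2.67 CPM with the ErbB2 inhibitor and 0 with the FGFR inhibitor, so the DMSO library alone was high, and only 1 of the 1003 UMIs came from DMSO cells of at least 3000 UMIs. The next was Pf4 (0 against 198 UMIs, at least 11.8-fold lower), a platelet chemokine gene that also led the mast cell cluster 45, and then Tpsb2, a mast cell tryptase (0 against 74, at least 4.42-fold lower). Pf4 stood at 104 CPM with DMSO, 4.01 with the ErbB2 inhibitor and 14.6 with the FGFR inhibitor, so DMSO was again the highest. Mitosis genes were lower in 9 of 10 used members (median −1.84, or −1.54 with genes at 0 UMIs at their bound), but DNA replication genes in 3 of 14, with 2 higher (median 0.08). Cluster mix also differed: cluster 2 held 45 of the 54 inhibitor cells (83.3%) and 591 of the 923 DMSO cells (64.0%).

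The sebaceous gland secretes sebum, a mix of wax esters, triglycerides and squalene made by cells that fill with lipid and burst. Here 6968 genes were compared, from 66 cells with 784623 UMIs (median 4575.5) against 1404 cells with 8424636 UMIs (median 3605.5), the closest match in depth per cell among the 5 types. Of these genes 3.3% were at least 2-fold higher with the ERK inhibitor and 5.41% at least 2-fold lower. The highest own genes were acute phase and antimicrobial genes: Saa1, Saa3, Cxcl1, Lcn2 and Steap4, with Mt1, the neuroglobin gene Ngb and the uncharacterised gene 4930438A08Rik. Over all cells, most lipid synthesis genes lay near DMSO, but several were lower in cells with few keratinocyte marker UMIs (below).

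The serum amyloid genes Saa1 (chromosome 7, 46740497 to 46742980) and Saa3 (46711998 to 46715700) encode lipid-binding acute phase proteins. Saa1 stood at 192 CPM with the ERK inhibitor, 2.37 with DMSO, 0.923 with the ErbB2 inhibitor and 1.15 with the FGFR inhibitor, a ratio of 6.22 (5.66 to 7.09). Saa3 stood at 823, 15.7, 18.5 and 25.9 CPM, a ratio of 5.70 (5.44 to 6.0). For both genes the ERK inhibitor library alone was high. The 2 genes are close relatives that lie near each other, and how reads were divided between them is not given in the sources used.

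Cxcl1, a chemokine that draws neutrophils, stood at 293, 25.4, 22.7 and 21.1 CPM, a ratio of 3.52 (3.25 to 3.80). Lcn2 (chromosome 2, 32384633 to 32388252), which binds bacterial iron carriers, stood at 371, 49.0, 58.7 and 75.0 CPM, a ratio of 2.91 (2.70 to 3.14). Steap4, a metal reductase, stood at 77.7, 13.3, 13.4 and 15.6 CPM, a ratio of 2.53 (2.07 to 3.01). Each was above all 3 other libraries. Mt1 stood at 1592, 273, 755 and 388 CPM (2.54, 2.44 to 2.64), with the ErbB2 inhibitor library in between. The ratios of Saa1, Saa3, Cxcl1 and Lcn2 were 6.07, 5.84, 3.29 and 2.93 in cells of at least 3000 UMIs, and 7.32, 6.07, 3.52 and 3.11 in cells with under 1% of UMIs from epidermal keratinocyte markers. Cluster 18, which Cxcl1 and Saa3 help to define, held 31.8% of the gland's inhibitor cells and 26.9% of its DMSO cells. Weighted to the DMSO mix of clusters, Saa3 and Cxcl1 were at 5.62 and 3.26. The gene 4930438A08Rik was at 2.59 (2.14 to 3.07), but its 62 UMIs lay in 3.03% of the 66 inhibitor cells, and in that second set of cells it had 0 UMIs against 34.

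Neutrophil activation genes in the gland had 5 of 9 used members at least 1.5-fold higher and 3 lower (median 0.77), beside 11.7% of all genes higher and 11% lower (median 0.04). The lower members were S100a8 (−1.48, −2.02 to −0.99), S100a9 (−0.62, −1.29 to −0.03) and Mmp9 (−1.25, −2.92 to −0.02). These 3 also belong to the wound keratinocyte list, and all 6 used members of that list were lower. Interferon response genes had 3 of 6 higher and 0 lower (median 0.59), with Ifitm3, a membrane protein that blocks virus entry, at 1.19 (1.13 to 1.25).

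Of 16 sebaceous lipid synthesis genes used, 3 were higher and 2 lower (median −0.09). Awat1, which esterifies wax alcohols, stood at 874, 470, 563 and 860 CPM (0.89, 0.78 to 1.01), and Elovl4, an elongase of very long fatty acids, at 0.77 (0.60 to 0.93). Acly, which makes cytosolic acetyl-CoA for lipid synthesis, stood at 365, 766, 498 and 670 CPM (−1.07, −1.25 to −0.90), below all 3 other libraries. Dgat2, a triglyceride synthesis enzyme, was at −1.78 on 7 UMIs (−3.14 to −0.74). In cells with under 1% keratinocyte marker UMIs, 47 against 353, the directions of Awat1 and Elovl4 turned (−0.71 and −1.01), and Acly was at −1.45. The cholesterol synthesis list had 0 of 12 members at or beyond 1.5-fold in either direction (median −0.28), with Mvd, which decarboxylates mevalonate diphosphate, the lowest at −0.58 (−0.81 to −0.35).

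Xenobiotic and retinoid metabolism genes had 4 of 10 higher and 0 lower (median 0.18), among them the cytochrome Cyp2b10 (182, 72.5, 83.6 and 149 CPM, ratio 1.33, 1.06 to 1.59). The list of 8 ERK targets used had 1 higher and 3 lower (median −0.23). Spry2 was at −0.71 (−1.40 to −0.09) and Ccnd1 at −0.46 (−1.11 to 0.12), while Etv4 was at −0.00 (−0.84 to 0.74). Myc (chromosome 15, 61985391 to 61990374), a growth-promoting transcription factor, was higher at 40.8 CPM against 14.2 with DMSO, 15.3 with the ErbB2 inhibitor and 21.8 with the FGFR inhibitor (1.5, 0.91 to 2.09). Some genes that passed the rule for own genes had 0 UMIs with the ERK inhibitor. Pf4, which also leads the mast cell cluster 45, had 569 UMIs with DMSO (at least 17.7-fold lower). Gm13124, a leading gene of sebaceous cluster 36, had 246 (at least 7.64-fold lower), and Gpd1, a glycerol phosphate dehydrogenase, had 74 (at least 2.30-fold lower). Pf4 stood at 67.5 CPM with DMSO, 1.44 with the ErbB2 inhibitor and 0 with the FGFR inhibitor, so the DMSO library alone was high.

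**Figure D3:**
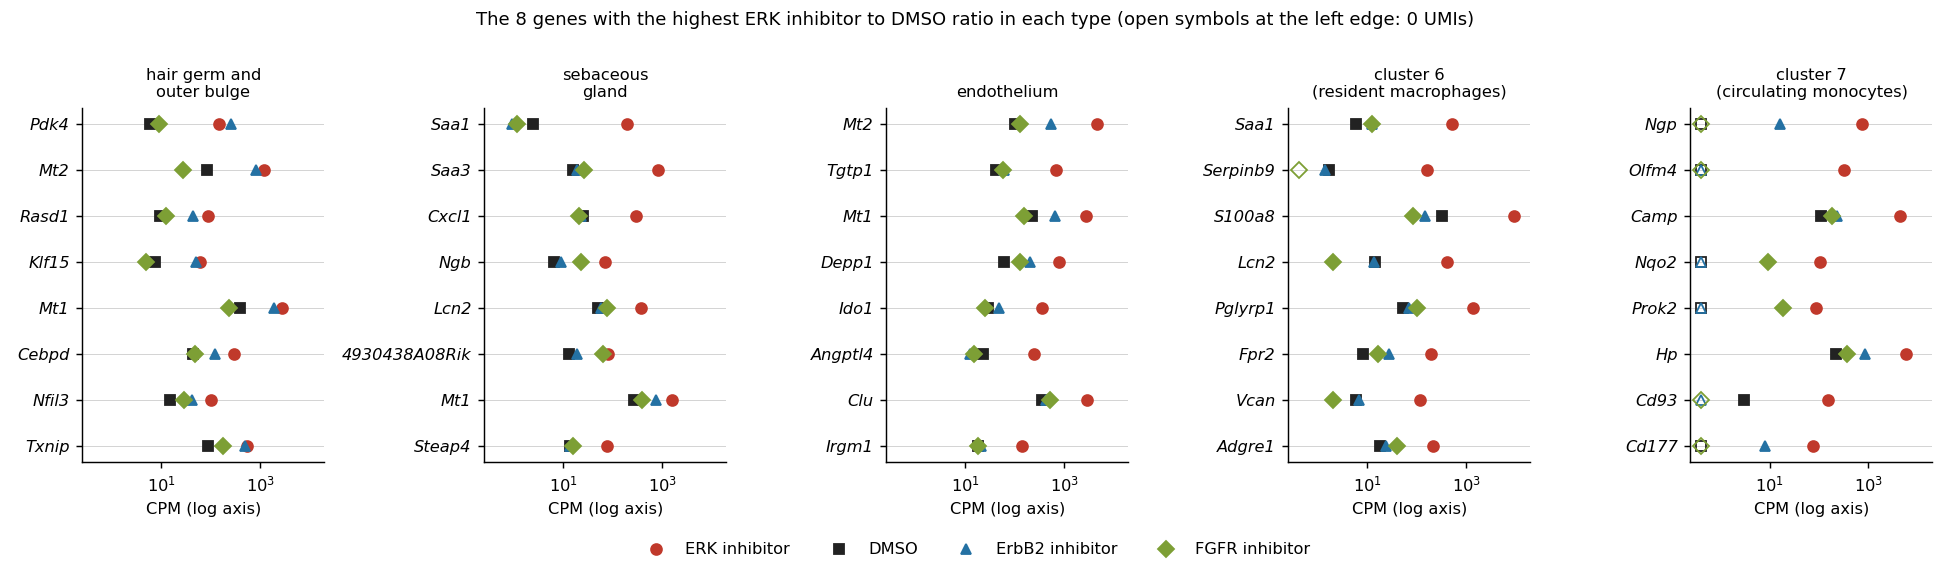
CPM (x axis, log scale) of the 8 own genes with the highest ratio in each of the 5 types, with 1 symbol per spiny mouse library and open symbols at the left edge for 0 UMIs. The ErbB2 inhibitor library lies close to the ERK inhibitor library for several hair germ genes, such as Mt1 (1899 against 2764 CPM), and far from it for Saa1 in the sebaceous gland (0.923 against 192 CPM).

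Endothelial cells line blood and lymph vessels and decide which leukocytes leave the blood. Here 4574 genes were compared, from 44 cells with 192870 UMIs (median 3365.5) against 977 cells with 2660105 UMIs (median 1769). Of these genes 9.84% were at least 2-fold higher with the ERK inhibitor and 13.2% at least 2-fold lower. Metallothioneins, genes induced by interferon and adhesion molecules were higher, while cyclin D1, DNA replication and mitosis genes and the tip cell gene Esm1 were lower. The 3 endothelial clusters were in similar proportion, with 18, 15 and 11 of 44 cells against 421, 313 and 243 of 977 in clusters 8, 17 and 29.

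Mt2 stood at 4583 CPM with the ERK inhibitor, 100 with DMSO, 536 with the ErbB2 inhibitor and 127 with the FGFR inhibitor, a ratio of 5.51 (5.32 to 5.72), and Mt1 was at 3.66 (3.50 to 3.84). Clu, a secreted chaperone also called clusterin, stood at 2867, 347, 420 and 517 CPM (3.04, 2.89 to 3.20). Depp1, a target of FOXO transcription factors, stood at 778, 61.7, 200 and 130 CPM (3.64, 3.33 to 3.99). Angptl4, a secreted inhibitor of lipoprotein lipase, was at 249, 22.6, 12.6 and 14.9 CPM (3.42, 2.89 to 4.04). For all of these the ERK inhibitor library was the highest of the 4.

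Genes of interferon responses filled other places at the top. Tgtp1 (chromosome 11, 48985327 to 48994172), a GTPase induced by interferon gamma, stood at 669, 42.5, 59.4 and 58.1 CPM (3.95, 3.60 to 4.35). Ido1, which breaks down tryptophan, stood at 353, 28.2, 48.6 and 24.3 CPM (3.61, 3.15 to 4.14). Irgm1, a relative of Tgtp1, was at 2.94 (2.25 to 3.70). Of 8 members of the interferon response list used, 6 were at least 1.5-fold higher and 0 lower (median 1.14), beside 22.8% of all genes higher and 23% lower (median 0.01). Among them Gbp2, a guanylate-binding GTPase, stood at 181, 27.8, 33.3 and 36.5 CPM (2.68, 2.08 to 3.30) and Mx1, an antiviral GTPase, was at 1.82 (1.01 to 2.61). The list's median was 1.2 with thinned cells and 1.21 in cells of at least 3000 UMIs.

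Among 10 adhesion and angiogenesis genes, 6 were higher and 2 lower (median 0.94, also with genes at 0 UMIs at their bound). Icam1, a ligand for leukocyte integrins, stood at 327, 61.3, 105 and 99.9 CPM (2.40, 1.97 to 2.84). Ackr1, a chemokine carrier of venules, stood at 1120, 388, 658 and 588 CPM (1.53, 1.31 to 1.74). Both were above all 3 other libraries. The lower members were Kdr, the main VEGF receptor, at 98.5, 169, 124 and 281 CPM (−0.78, −1.53 to −0.12), and Esm1, a proteoglycan gene of angiogenic tip cells, with 0 UMIs against 148, at least 3.58-fold lower. Kdr was at −0.10 with thinned cells, −0.85 in cells of at least 3000 UMIs and −1.63 (−2.46 to −0.94) in cells with under 1% keratinocyte marker UMIs. General endothelial markers, named after their values were seen, did not share 1 size of difference. The junction genes Pecam1 at 1.41 (1.09 to 1.72), Esam at 1.41 (1.04 to 1.77) and Cdh5 at 1.21 (0.63 to 1.76) were higher. Tie1 at 0.45 (0.02 to 0.86) and Flt1 at 0.69 (−0.03 to 1.35) differed less and lay within the range of the other libraries, and Kdr was lower.

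Another own gene at 0 UMIs with the ERK inhibitor was C1qtnf9, a secreted complement C1q relative (154 UMIs with DMSO, at least 3.72-fold lower). The mast cell genes Mcpt4 (255, at least 6.16-fold lower) and Tpsb2 (166, at least 4.01-fold lower) also passed the rule at 0 UMIs. Both lead the mast cell cluster 45, which had 0 inhibitor cells and 94 DMSO cells. Ccnd1 had 11 UMIs against 613, that is 57.0 CPM with the ERK inhibitor, 230 with DMSO, 104 with the ErbB2 inhibitor and 216 with the FGFR inhibitor (−2.0, −3.02 to −1.16). Dusp6 had 3 UMIs against 116 (−1.45, −3.79 to 0.10). Of 8 DNA replication genes used, 7 were lower and 0 higher (median −1.67). Of 12 mitosis genes, 11 were lower and 1 higher (median −3.05, or −2.34 with genes at 0 UMIs at their bound). Among the latter Top2a, a topoisomerase of dividing cells, had 0 UMIs against 277.

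Among 10 immediate early genes in endothelium, which ERK and stress kinases switch on within minutes, 5 were higher and 1 lower (median 0.41). Btg2, an antiproliferative gene, was at 2.54 (1.81 to 3.31) and Klf6, a zinc finger factor, at 1.53 (1.23 to 1.82), whereas Fos had 0 UMIs against 77. Of the 5 types, the ERK inhibitor endothelium is the one in which 1 cell weighs most, since its deepest cell held 11% of the UMIs. With that cell and the deepest DMSO cell left out, the ratios of Mt2, Tgtp1, Icam1 and Ccnd1 were 5.65, 4.03, 2.51 and −1.98.

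Cluster 6 expresses the antigen presentation genes of macrophages and dendritic cells. Here 6245 genes were compared, from 33 cells with 410912 UMIs (median 11980) against 410 cells with 1220807 UMIs (median 2376), and the gap in depth per cell was the widest of the 5 types. With the ERK inhibitor 11.7% of genes were at least 2-fold higher and 16.7% at least 2-fold lower. Genes of neutrophil activation and the acute phase gene Saa1 were higher. Most used genes of the tissue macrophage and complement list, among them the C1q genes, were lower. Ccnd1 and Dusp6 had 0 and 1 UMIs. The macrophage marker Csf1r, named here after its value was seen, was at 494, 270, 608 and 683 CPM with a ratio of 0.87, so that receptor gene was detected in all 4 libraries. The macrophage markers did not share 1 direction. Lyz2 at 1.86 (1.34 to 2.44), Cd68 at 0.65 (0.33 to 0.98) and Adgre1 were higher, as was Csf1r. Mrc1 was at 0.12 (−0.23 to 0.46), while C1qa, C1qb, C1qc and Apoe were lower. Lyz2, Cd68 and Mrc1 are also named after their values were seen.

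Saa1 stood at 504 CPM with the ERK inhibitor, 5.73 with DMSO, 12.4 with the ErbB2 inhibitor and 12.1 with the FGFR inhibitor (6.18, 5.39 to 7.79). S100a8 (chromosome 3, 90668978 to 90670035), which with S100a9 forms the calcium-binding protein calprotectin, stood at 9433, 322, 146 and 82.6 CPM (4.87, 4.72 to 5.03). Pglyrp1, a bactericidal protein of granules, stood at 1346, 53.2, 70.0 and 103 CPM (4.63, 4.29 to 5.05). Lcn2 stood at 399, 13.9, 13.7 and 2.01 CPM (4.72, 4.12 to 5.66). In each case the ERK inhibitor library alone was high. Fpr2, a receptor for bacterial formyl peptides, was at 4.4 (3.64 to 5.70), Vcan, a proteoglycan of monocytes, at 4.05 (3.16 to 5.71), Adgre1, the F4/80 antigen of macrophages, at 3.48 (2.88 to 4.32) and Serpinb9, an inhibitor of granzyme B, had 65 UMIs against 2 (5.80, 4.68 to 9.67), with the 65 in 6.06% of the 33 cells.

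Of 10 neutrophil activation genes used in cluster 6, 9 were at least 1.5-fold higher and 1 lower (median 1.98), beside 23.4% of all genes higher and 25.6% lower (median 0.01). The lower one was Mmp9, with 0 UMIs against 32. The 8 neutrophil markers overlap with this list, so they are not separate from it. Together they made up 1.16% of UMIs with the ERK inhibitor and 0.0634% with DMSO. With the ErbB2 and FGFR inhibitors they made up 0.0397% and 0.0338%. Most of these UMIs with the ERK inhibitor came from S100a8 (9433 CPM) and S100a9 (1896 CPM), which are in both lists. Of the 8, Cxcr2 and Mmp9 were at 0 UMIs with the ERK inhibitor, while Csf3r, the G-CSF receptor, was at 70.6, 22.9, 20.6 and 28.2 CPM (1.57, 0.82 to 2.42). The part of neutrophil RNA in these differences was not tested. In cluster 7 of the same library those markers made up 28.4% of UMIs.

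The tissue macrophage and complement list went the other way, with 7 of 10 used members lower and 2 higher (median −2.29). C1qa (chromosome 4, 136895917 to 136898803), a chain of the complement protein that tags debris for uptake, stood at 0 CPM with the ERK inhibitor, 200 with DMSO, 833 with the ErbB2 inhibitor and 1054 with the FGFR inhibitor. That is 0 UMIs against 244, at least 27.4-fold lower. Gas6, a bridge between dying cells and phagocyte receptors, had 3 UMIs against 124 (−3.59, −6.10 to −2.22). The next values are of genes named after they were seen. C1qb stood at 60.8, 319, 1472 and 1428 CPM (−2.37, −3.04 to −1.81), C1qc at 97.3, 423, 1675 and 1765 CPM (−2.11, −2.62 to −1.66) and Pf4 at 41.4, 197, 536 and 600 CPM (−2.22, −3.05 to −1.54). The UMIs of C1qc with the ERK inhibitor lay in 3.03% of the 33 cells and those of C1qb in 9.09%. The 3 C1q genes ran from the ERK inhibitor, lowest, through DMSO to the other 2 inhibitors, highest. Apoe, a lipid carrier, stood at 363, 2561, 2954 and 3187 CPM (−2.82, −3.07 to −2.58), with DMSO close to the other two.

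Members that were higher were Retnla, an alternative activation gene (1779, 813, 813 and 1761 CPM, ratio 1.13, 0.99 to 1.27), and Trem2, a lipid-sensing receptor (0.59, −0.17 to 1.34). Of 4 MHC class II genes, which present antigen to T cells, 2 were lower and 0 higher (median −0.53). Cd74, the invariant chain of these molecules, stood at 11355, 14758, 26270 and 24934 CPM (−0.38, −0.42 to −0.33), and H2-Aa was at −0.28 (−0.36 to −0.21). The lowest own genes included Serpinf1 (0 against 278 UMIs, at least 31.2-fold lower), the macrophage receptor Timd4 (0 against 137, at least 15.4-fold lower) and the Langerhans cell lectin Cd207 (0 against 118, at least 13.2-fold lower). The cornified envelope genes Lce1b and Lce1f, with 0 against 285 and 231 UMIs, were also among them, as were Flg, with 1 against 624, and 2310050C09Rik, with 0 against 140.

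Of 12 interferon response genes in cluster 6, 7 were higher and 1 lower (median 0.70), with Irf1 at 2.08 (1.40 to 2.90), Gbp2 at 2.04 (1.52 to 2.64) and Ifitm3, the lower one, at −1.96 (−2.15 to −1.77). Glycolysis and hypoxia genes had 7 of 14 higher and 2 lower (median 0.57). Gpi1, which interconverts the hexose phosphates, was at 1.16 (0.88 to 1.45). Cytokine and chemokine genes had 7 of 11 lower and 2 higher (median −1.41). The highest was Il1b, the fever-inducing interleukin, at 475, 66.3, 23.3 and 113 CPM (2.82, 2.46 to 3.23). The lowest were Cxcl14 and Il33, chemokine and alarmin genes of epithelia, each at 0 UMIs with the inhibitor.

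Of 5 ERK target and feedback genes used in cluster 6, 0 were higher and 3 lower (median −0.93). Dusp6 had 1 UMI against 79, that is 2.43 CPM with the ERK inhibitor, 64.7 with DMSO, 78.3 with the ErbB2 inhibitor and 94.7 with the FGFR inhibitor (−4.17, −10.05 to −2.21). Ccnd1 had 0 UMIs against 97, at least 10.9-fold lower, with 75.5 and 96.7 CPM in the ErbB2 and FGFR inhibitor libraries. Myc had 4 UMIs against 18 (−0.54, −2.62 to 1.0). In cells of at least 3000 UMIs, 33 against 140, the ratios of S100a8, Pglyrp1, Il1b and Dusp6 were 5.22, 5.33, 3.18 and −3.69, and C1qa had 0 UMIs against 150.

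**Figure D4:**
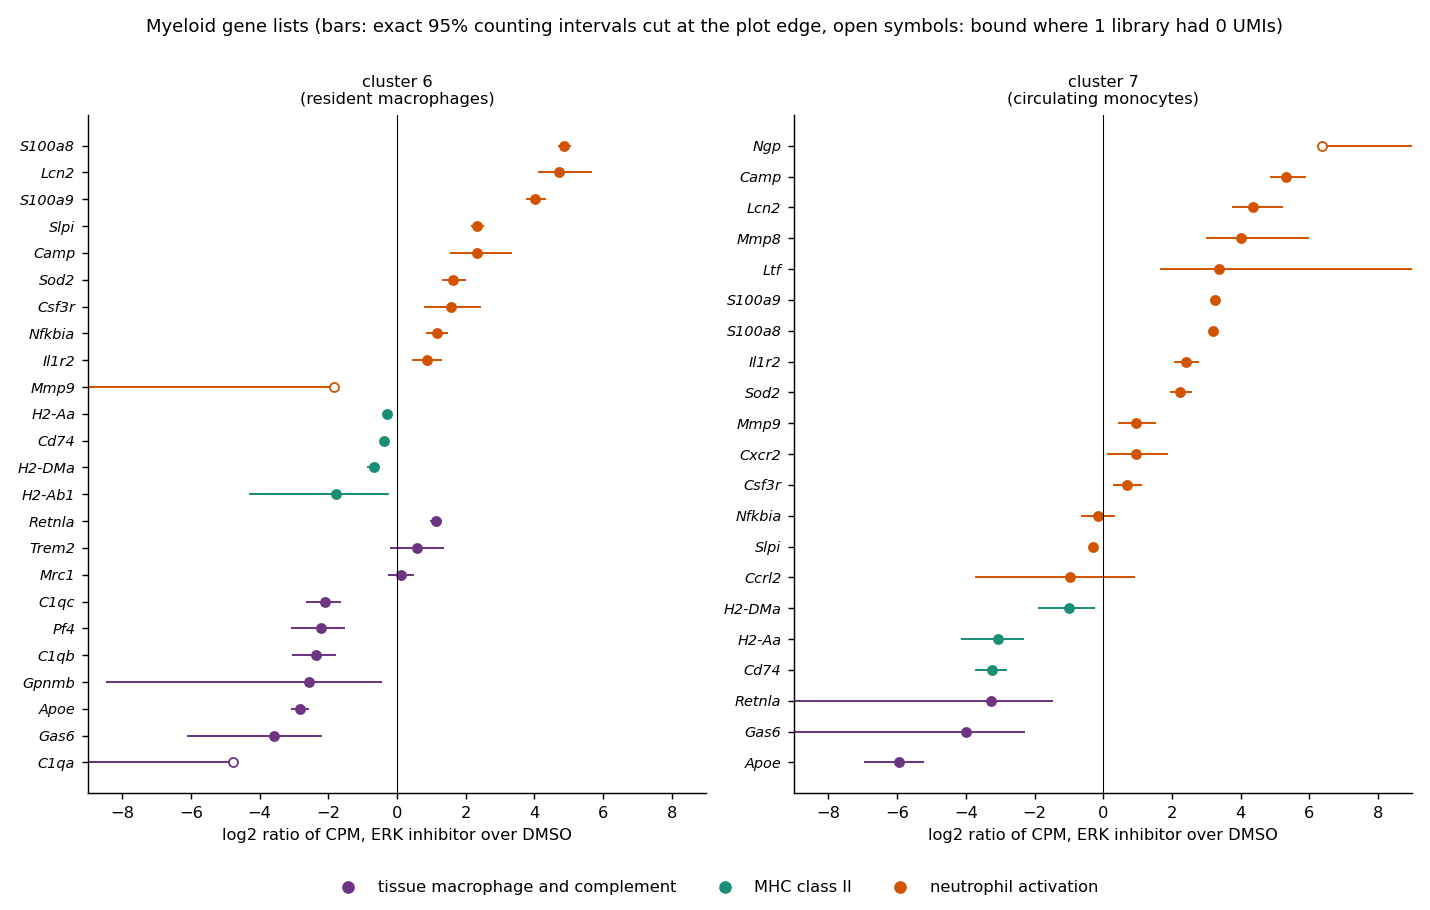
Log2 ratio of CPM, ERK inhibitor over DMSO (x axis), of the used members of 3 myeloid lists in cluster 6 (left) and cluster 7 (right), with exact 95% counting intervals and open symbols for bounds where 1 library had 0 UMIs. In cluster 6, 9 of 10 neutrophil activation genes lie to the right and 7 of 10 tissue macrophage genes to the left of 0 by at least 1.5-fold.

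Cluster 7 carries the annotation circulating monocytes and leads with neutrophil genes. Here 4494 genes were compared, from 55 cells with 278920 UMIs (median 5167) against 227 cells with 332713 UMIs (median 1192). Of these genes 15.1% were at least 2-fold higher with the ERK inhibitor and 37.9% at least 2-fold lower. Centred on the median gene, which lay at −0.54, the counts of 677 higher and 1705 lower genes became 1129 and 1246, so the list medians below are to be read against −0.54. Granule genes of maturing neutrophils were higher and ribosomal protein and MHC class II genes were lower.

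Granule genes led the list. Ngp (chromosome 9, 110419747 to 110423012), a protein of secondary granules made in the bone marrow, had 209 UMIs against 0, at least 83.1-fold higher, and it stood at 749 CPM with the ERK inhibitor, 16.3 with the ErbB2 inhibitor and 0 with the FGFR inhibitor. Camp (109847379 to 109849617 on the same chromosome), the antimicrobial cathelicidin, stood at 4431, 108, 236 and 188 CPM in the ERK inhibitor, DMSO, ErbB2 and FGFR inhibitor libraries (5.31, 4.88 to 5.88). Olfm4, a marker of a subset of neutrophils, had 92 UMIs against 0, at least 36.6-fold higher, and 0 in the other two. Hp, the haemoglobin-binding haptoglobin, stood at 5711, 219, 854 and 376 CPM (4.68, 4.36 to 5.06). For each of these the ERK inhibitor library was the highest, and the other 3 were several-fold below it.

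Further genes at 0 UMIs with DMSO were Nqo2, a quinone reductase (29 UMIs, at least 11.5-fold higher), Prok2, a secreted peptide (24, at least 9.54-fold higher), and the neutrophil surface gene Cd177 (21, at least 8.35-fold higher). Cd93, a receptor of myeloid cells, had 43 against 1 (4.65, 3.13 to 11.02). Of 15 neutrophil activation genes used, 12 were higher and 1 lower (median 2.41), beside 22.5% of all genes at least 1.5-fold higher. S100a8 alone made up 205969 CPM with the ERK inhibitor, against 22725 with DMSO, 42074 with the ErbB2 inhibitor and 44120 with the FGFR inhibitor (3.18, 3.15 to 3.21). The receptors Csf3r (477, 292, 513 and 451 CPM, ratio 0.70, 0.32 to 1.1) and Cxcr2 (118, 60.1, 97.7 and 103 CPM, ratio 0.94, 0.13 to 1.86), which mark mature neutrophils and are named after their values were seen, differed less. The lowest member was Ccrl2, an atypical chemokine receptor, with 3 UMIs against 8 (−0.96, −3.71 to 0.90).

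All 18 ribosomal protein genes of the list were at least 1.5-fold lower (median −2.57), beside 48.7% of all genes. Per cell, the median percent of UMIs from ribosomal genes was 3.68 with the ERK inhibitor, 13 with DMSO, 10.1 with the ErbB2 inhibitor and 9.24 with the FGFR inhibitor. Of 17 nuclear genes of oxidative phosphorylation, 13 were lower and 0 higher (median −1.15). Of 7 heat shock chaperones, 5 were lower and 0 higher (median −2.81). Glycolysis and hypoxia genes had 6 of 12 higher and 3 lower (median 0.48), among them Hk2, a hexokinase (1.92, 0.89 to 3.41), and Gpi1 (1.57, 1.24 to 1.94). Interferon response genes had 4 of 11 higher and 1 lower (median 0.22).

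Genes of antigen presentation were lower in cluster 7: Cd74 stood at 179, 1704, 2612 and 2367 CPM (−3.23, −3.70 to −2.83) and H2-Aa at −3.07 (−4.10 to −2.33), with 3 of 3 used members of the list lower. Il18, a cytokine of the inflammasome, had 3 UMIs against 139 (−4.91, −7.57 to −3.70). The chemokine Ccl6 stood at 86.0, 1350, 1302 and 2536 CPM (−3.92, −4.63 to −3.38). The other lowest own genes were mostly keratinocyte and hair genes, among them Krt71 (0 against 143 UMIs, at least 40.0-fold lower), Krt17 (1 against 274, −6.91, −13.15 to −5.35) and Krt25 (2 against 250, −6.18, −9.76 to −4.84). Ccnd1 had 1 UMI against 21 (−3.28, −9.51 to −1.5). With cells thinned to 1000 UMIs, 55 against 168, the ratios of Camp, Hp and S100a8 were 4.45, 4.45 and 2.80, and those of Cd74 and H2-Aa were −2.10 and −1.76.

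The keratinocyte types held clusters that did not lead with markers of their own name, so they were read as clusters 0 and 1 (basal), 22 (cycling) and 5, 9 and 10 (suprabasal). The mix within the types differed between the libraries. Cluster 0 held 47 of 103 inhibitor basal cells against 963 of 4031 with DMSO, and cluster 11 held 2 against 794. Cluster 22 held 21 of 34 cycling cells against 377 of 1428. Cluster 10 held 35 of 153 suprabasal cells (22.9%) against 253 of 2998 (8.44%). Its granular markers, named after their values were seen, were mixed, on 50794 UMIs against 455339. Flg had 6 UMIs against 2720 (−5.61, −7.11 to −4.54) and Flg2 had 0 against 83, at least 3.09-fold lower. Cdsn at −1.77, Klk7 at −1.15 and Asprv1 at −0.90 were also lower. Hrnr at 0.67 (−0.09 to 1.37) and Ivl at −0.13 (−1.18 to 0.77) had intervals that include 0.

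In both basal clusters DNA replication genes were lower, and in cluster 0 Mt2 and immediate early genes were higher. DNA replication genes had 0 of 15 higher and 13 lower in cluster 0 (median −1.03) and 0 higher and 15 lower of 15 in cluster 1 (median −1.55, or −1.46 with the gene at 0 UMIs at its bound), beside 15.3% and 19.8% of all genes lower and 12.1% and 12.7% higher. Mcm4, a subunit of the replicative helicase, had 1 UMI against 148 in cluster 1 (−3.29, −8.77 to −0.96). In the cycling cluster 22, by contrast, 2 of 16 were higher and 1 lower (median 0.11), and mitosis genes had 0 of 18 higher and 2 lower (median −0.14), beside 10.5% of all genes higher and 17.8% lower. Mt2 stood at 1348 CPM with the ERK inhibitor, 75.1 with DMSO, 401 with the ErbB2 inhibitor and 73.5 with the FGFR inhibitor in cluster 0 (4.16, 3.99 to 4.34). Immediate early genes had 7 of 13 higher and 0 lower in cluster 0 (median 0.83), with Jun at 2.54 (2.30 to 2.79) and Klf6 at 2.70 (2.49 to 2.92), but 0 of 10 higher and 6 lower in cluster 22 (median −0.79).

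In suprabasal clusters 5 and 9 interferon response genes were higher and most used epidermal differentiation genes were lower, though several suprabasal markers were not. Interferon response genes had 5 of 7 higher and 0 lower in cluster 5 (median 0.83) and 8 of 8 higher in cluster 9 (median 1.68), beside 10% and 13.3% of all genes higher. In cluster 9 Mx1 was at 3.79 (3.14 to 4.67), the chemokine Ccl20 at 3.58 (3.21 to 4.0) and Hmox1, the haem-degrading oxygenase, at 146 CPM against 0.964, 0.552 and 0.665 (6.81, 5.98 to 8.89). Epidermal differentiation genes had 0 higher and 8 of 13 lower in cluster 5 (median −1.0) and 0 higher and 7 of 12 lower in cluster 9 (median −1.15), beside 15.2% and 14.3% of all genes lower. Saa1 and Lcn2 were among the highest genes of the cycling cluster 22, at 4.45 (3.81 to 5.44) and 2.83 (2.55 to 3.14). The 97 Saa1 UMIs lay in 9.52% of the 21 inhibitor cells, and the ratio was 0.85 once the deepest cell per library was left out.

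Set side by side over the 5 types and 6 keratinocyte clusters, several genes had the same direction in most places where they could be used. These 11 sets of cells share 2 libraries, so they are not replicates of the treatment. Ccnd1 was below DMSO in 10 of the 10 sets where it was used, and its interval lay below 0 in 7. It was above DMSO at 0.96 in suprabasal cluster 5 with cells thinned to 1000 UMIs, and at 0.34 in sebaceous gland cells with under 1% keratinocyte marker UMIs. Dusp6 was below DMSO in 5 of 5, with the interval below 0 in 1, and Etv4 in 5 of 5, with none. In the sebaceous gland the Etv4 ratio was −0.00, so no difference was seen there. It was 0.05 in gland cells of at least 3000 UMIs and 0.44 in those with under 1% keratinocyte marker UMIs. With cells thinned to 1000 UMIs Etv4 was at 0.86 in cluster 22 and Dusp6 at 0.17 in basal cluster 0. Spry2 was above in 2 and below in 3. Egr1, Etv5 and Fosl1 had too few UMIs in all 11. Myc was above DMSO in 6 of 8, in each of the 6 with its interval above 0, and the 2 exceptions were hair germ and cluster 6. With cells thinned to 1000 UMIs Myc was below DMSO in basal cluster 0 (−0.46) and suprabasal cluster 9 (−2.38). Those 2 values rest on 47 and 27 inhibitor cells at 1000 UMIs each, too few to read a gene at this level in either direction. In cells of at least 3000 UMIs Myc was at 1.01 in basal cluster 0 and 1.30 in suprabasal cluster 9. That set kept 47 of 47 and 21 of 29 inhibitor cells, and 829 of 963 and 451 of 517 DMSO cells. It holds nearly the same UMIs as all cells, so it is no separate check on these ratios.

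Stress and defence genes, most of them chosen for this view after their values were seen, did not share 1 direction. The calprotectin genes S100a8 and S100a9 were each below DMSO in 7 of 11 sets, with intervals below 0 in 6 and 7, and above it in clusters 6, 7, 9 and 22. Lcn2 was above DMSO in 9 of 9 sets and its interval lay above 0 in 8, and in basal cluster 0, on 9 UMIs, its ratio of 0.89 was −0.57 once the deepest cell per library was left out. With cells thinned to 1000 UMIs Lcn2 was at −2.64 in that cluster and −0.23 in hair germ. These values rest on 47 and 51 inhibitor cells at 1000 UMIs each, too few to read a gene at this level in either direction. In cells of at least 3000 UMIs Lcn2 was at 0.84 and 1.42. That set kept 47 of 47 inhibitor and 829 of 963 DMSO cells in basal cluster 0, so there it is no separate check. In hair germ it kept 45 of 54 and 157 of 923. Saa1 and Saa3 were above in 4 of 4, with the limit on Saa1 in cluster 22 given above. Mt1 was above in 9 of 11 and below in cluster 7 and suprabasal cluster 10. Txnip was above in 8 of 10, Fkbp5, a chaperone gene induced by glucocorticoids, in 8 of 9, and Nfil3 in 6 of 6. Pf4 was below in 6 of 6. Outside cluster 6 the DMSO library was the highest for Pf4 in each of these sets, also above the ErbB2 and FGFR inhibitor libraries. In endothelium Pf4 stood at 0 CPM with the ERK inhibitor, 91.3 with DMSO, 9.90 with the ErbB2 inhibitor and 18.9 with the FGFR inhibitor.

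**Figure D5:**
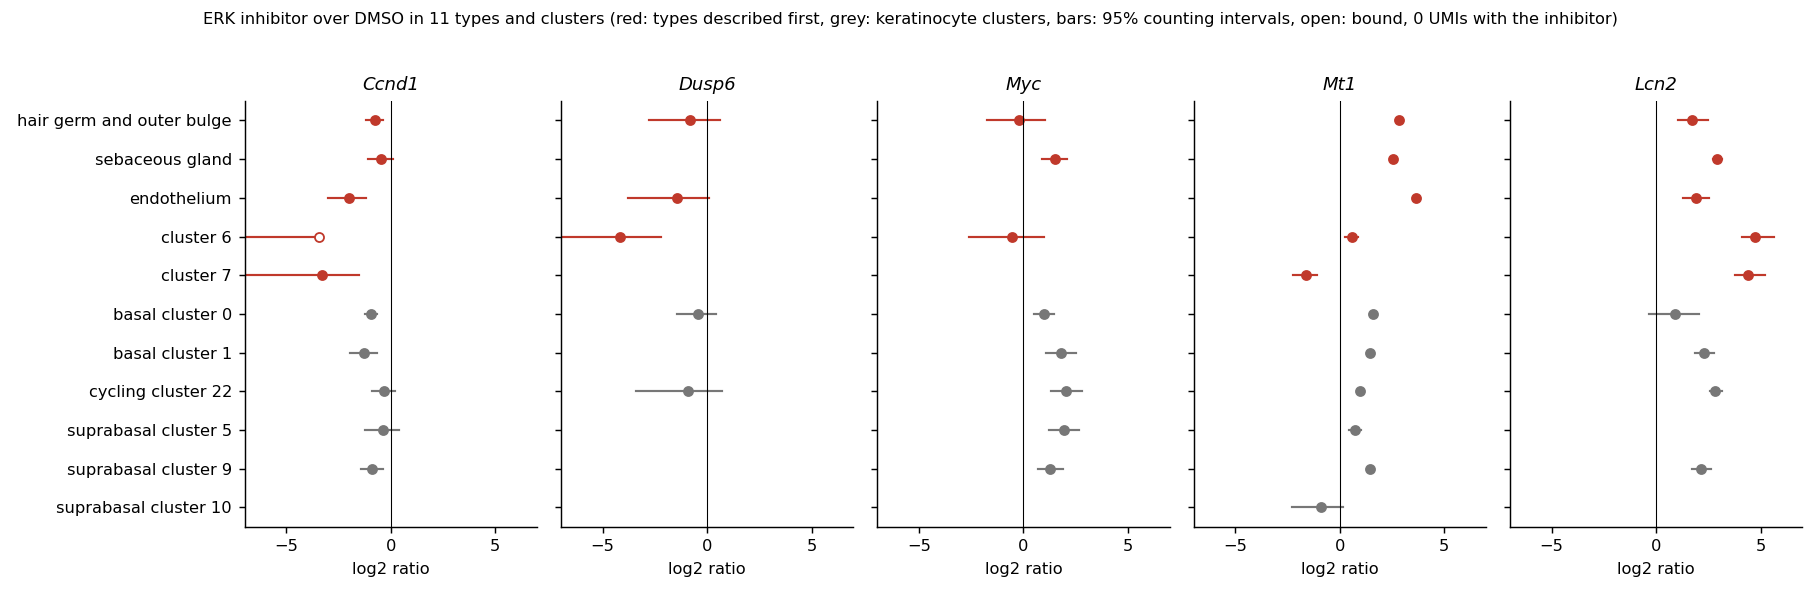
Log2 ratio of CPM, ERK inhibitor over DMSO (x axis), of 5 genes in the 5 types (red) and 6 keratinocyte clusters (grey), with exact 95% counting intervals and open symbols for a bound where the inhibitor side had 0 UMIs. With all cells counted, Ccnd1 lies to the left of 0 in all 10 sets where it was used, and Lcn2 to the right in all 9.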

How the data were processed

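Ear punch skin cells were captured with 10x Chromium 3′ v3.1 chemistry, per the labels' protocols. The authors deposited raw UMI counts per gene and cell, with the library, cluster, annotated type and percent of ribosomal UMIs of each cell, per the file headers. Cell Ranger 6.1.1 and the mouse build mm10/GRCm38 are named in the submitters' processing notes. How cells were filtered and doublets treated is not given in the sources used, and no doublet caller was run. No per-sample column was left unused.

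Counts were summed per library and type with Python 3.11.15, pandas 2.3.3, NumPy 2.4.6 and SciPy 1.17.1. The ratios and intervals, not the sums, were checked on simulated gene totals without spread between cells. Where a named type held clusters led by genes of another type, clusters were compared by number. A gene was used where the UMIs of both libraries, divided in proportion to depth, would give at least 5 UMIs in the library with fewer UMIs, so a gene high in only 1 library passed through that library. Intervals cover counting error only. The genes named in a type were the 8 highest and 8 lowest ratios among its own genes, up to 4 members of each list described (its 2 highest and 2 lowest), and Dusp6, Spry2, Etv4, Etv5, Egr1, Fosl1, Ccnd1 and Myc. Some genes under this rule are not reported here. The members and the 30 gene lists and 23 marker lists were chosen with earlier results of these data known. Alternatives were thinning each cell to 1000 UMIs, a minimum of 20 UMIs, a prior of 1 UMI, centring on the median gene, leaving out the deepest cell of each library, weighting to the DMSO cluster mix and, for shares, cells of at least 3000 UMIs or cells outside the interfollicular types. Genes in cells of at least 3000 UMIs, and in cells with under 1% of UMIs from epidermal keratinocyte markers, were added after seeing the data. Figures were drawn with matplotlib 3.10.9.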

Additional observations from a re-analysis of the deposited data

How the results depend on the processing

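With each cell thinned to 1000 UMIs, the numbers of genes at least 2-fold higher and lower were 54 and 183 in hair germ, 53 and 129 in sebaceous gland, 105 and 222 in endothelium, 119 and 154 in cluster 6, and 201 and 525 in cluster 7. With at least 20 UMIs by proportion they were 60 and 124, 45 and 105, 88 and 174, 307 and 292, and 310 and 562. Both settings used fewer genes (between 995 and 3811 a type). Centred on the median gene, cluster 7 had 1129 higher and 1246 lower genes. In cells with under 1% keratinocyte marker UMIs, endothelium had 681 higher genes; the cause was not tested. Other counts of genes, under a 1 UMI prior, without the deepest cell, weighted to the DMSO mix and in cells of at least 3000 UMIs, moved by less than 1.5 times. Too few DMSO cells were left for counts in cluster 7 at 3000 UMIs, and in hair germ, cluster 6 and cluster 7 under the limit on keratinocyte UMIs. Among cells of at least 3000 UMIs the log2 ratio of the suprabasal share was −0.53, a change of sign. That of the other shares was 6.30 for circulating monocytes, 2.31 for hair germ, 2.03 for resident macrophages, 0.82 for endothelium, −0.39 for basal cells, −1.28 for cycling basal cells and −0.26, also a change of sign, for sebaceous gland; the cause was not tested. Of the list medians over all types and clusters, 103 moved by more than 1.5 times with thinned cells and 179 did not. With a prior of 1 UMI, 22 moved by that much and 261 did not. Thinning changed the sign of 1 list median of at least 1.5-fold. That was the adhesion and angiogenesis list in cluster 6, 3 genes, at −1.89 with thinned cells against 1.03. The cause was not tested. Of the 5 types, endothelium had the fewest inhibitor UMIs, 192870 in 44 cells. No paired analysis was possible because each group is 1 library.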
